A study of Mus musculus with 2 samples.

Results

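Heat shock proteins of the Hsp90 and Hsp70 families and their co-chaperones were followed through 2 long-read RNA libraries of mouse hippocampus. Members were the 10 genes whose deposited gene name was Hsp90aa1, Hsp90ab1, Hsp90b1, Hspa4, Hspa5, Hspa8, Hspa9, Dnaja1, Dnajb1 or Dnajc5, out of 19042 annotated genes with at least 1 read in either library. They held 6859 of 1168366 reads in replicate 1 and 5343 of 888704 in replicate 2, which is 0.587% and 0.601% of all reads. All 10 passed the minimum of 10 reads over both libraries used for testing.

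Both libraries came from hippocampus of females aged 14 days, of the strain B6CASTF1/J, a first-generation cross between C57BL/6J and CAST/EiJ. No treatment is named in the labels. Each library was made from 2 µg of total RNA pooled over 3 animals, so the study has 1 group of 2 biological replicates and no second condition. The animal numbers in the sample attributes differ between the replicates, while another line of the labels repeats replicate 1's numbers for both. Every test below therefore compares the 2 libraries with reads as the unit, and a p-value covers counting error in those libraries, not the spread between animals.

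Cytosolic Hsp70 proteins bind unfolded segments in a cycle of ATP hydrolysis that J proteins start and nucleotide exchange factors end. Hsp90 acts later, as a dimer, on kinases, steroid receptors and other clients that Hsp70 hands over. Some family members are made all the time and others are induced by heat or by unfolded protein in the endoplasmic reticulum (ER). At synapses, Hspa8 strips clathrin from vesicles and works with the vesicle protein Dnajc5 to keep release proteins folded.

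The last codons of the mRNAs tell the cytosolic Hsp90aa1, Hsp90ab1 and Hspa8 from the ER members Hspa5 and Hsp90b1. Those of the other members are not shown. The 10 codons before the stop codon, from the GENCODE M21 transcripts on mm10, were as follows, with the last 4 codons in capitals.
Hsp90aa1 (chr12:110691543-110691572, minus strand): gacgacacatcacgcatgGAAGAAGTAGAC
Hsp90ab1 (chr17:45568018-45568047, minus strand): gaggatgcctcgcgcatgGAAGAGGTGGAT
Hspa8 (chr9:40805085-40805114, plus strand): tcttcaggccccaccattGAAGAGGTGGAT
Hspa5 (chr2:34776081-34776110, plus strand): gaagaggatacatcagaaAAAGATGAGTTG
Hsp90b1 (chr10:86691105-86691634, minus strand, across the last intron): gaaaaggaatctacagagAAGGATGAATTG
The capitals of Hsp90aa1, Hsp90ab1 and Hspa8 encode the tail that co-chaperones with tetratricopeptide repeats bind, and those of Hspa5 and Hsp90b1 encode the ER retrieval signal. Over the whole coding sequence, Hsp90aa1 and Hsp90ab1 were 75.3% identical and Hspa8 and Hspa5 61.4% identical at the nucleotide level.

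The constitutive members had the larger sum in both libraries, most of it from Hspa8 and Hsp90ab1, with means of 2121 and 1626 counts per 1000000 reads (CPM). The constitutive Hspa4, Hspa9 and Dnajc5 each lay below the inducible Hsp90aa1 and Hspa5 in both libraries. The 6 constitutive members (Hsp90ab1, Hspa8, Hspa4, Hspa9, Dnaja1 and Dnajc5) summed to 4615 CPM in replicate 1 and 4861 in replicate 2, or 4738 ± 174 (SD, n = 2). The 2 heat-inducible members, Hsp90aa1 and Dnajb1, summed to 575 ± 48.0 (SD, n = 2), and the 2 ER members, Hspa5 and Hsp90b1, to 629 ± 122 (SD, n = 2). In a long-read count 1 read stands for 1 cDNA, so CPM was not divided by length. The ratio between these libraries varied with transcript length, so levels of genes of different length are not strictly comparable, and each is also placed among genes of similar transcript length (within 1.2-fold). The split into classes is textbook background, and the labels name no heat or stress treatment.

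Hspa8 (chr9:40800984-40810087, mm10, plus strand), the constitutive cytosolic Hsp70, had the most reads, with 2178 CPM in replicate 1 and 2064 in replicate 2. Among 2602 tested genes of similar length it stood at the 99.96th percentile. Hsp90ab1 (chr17:45567775-45573271, minus strand), the constitutive cytosolic Hsp90, followed with 1487 and 1764 CPM. These were the only members above 1000 CPM, and they were so in both libraries.

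Hsp90aa1, Dnaja1 and Hspa5 formed a middle group, and their order differed between the libraries. Hsp90aa1 (chr12:110690605-110702728, minus strand), the heat-inducible cytosolic Hsp90, had 472 and 561 CPM in replicates 1 and 2. Dnaja1 (chr4:40722150-40737149, plus strand), a cytosolic J protein that starts the Hsp70 cycle, had 550 and 475. Hspa5 (chr2:34771970-34777547, plus strand), the ER Hsp70 known as BiP, had 559 and 383. The ranges of these 3 genes overlap, so their mean levels (517, 513 and 471 CPM) do not differ beyond the spread between libraries.

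Below them lay Dnajc5 (chr2:181520485-181555133, plus strand), the cysteine string protein of synaptic vesicles, with 184 and 235 CPM. Hspa9 (chr18:34937414-34954357, minus strand), the mitochondrial Hsp70, had 158 and 239. Hsp90b1 (chr10:86690209-86705509, minus strand), the ER Hsp90, had 156 and 160. The range of Hspa9 overlaps those of both others, while Dnajc5 was above Hsp90b1 in both libraries. Hspa4 (chr11:53259814-53300457, minus strand), a member of the Hsp110 group that exchanges nucleotide on Hsp70, had 57.3 and 84.4 CPM. Dnajb1 (chr8:83608193-83612653, plus strand), the heat-inducible cytosolic J protein, had 69.3 and 47.3, ranges that overlap as well. Dnajb1 was at the 68.1st percentile among 2915 tested genes of similar length, the lowest place of the 10, while 7 of the others were above the 90th.

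**Figure D1:**
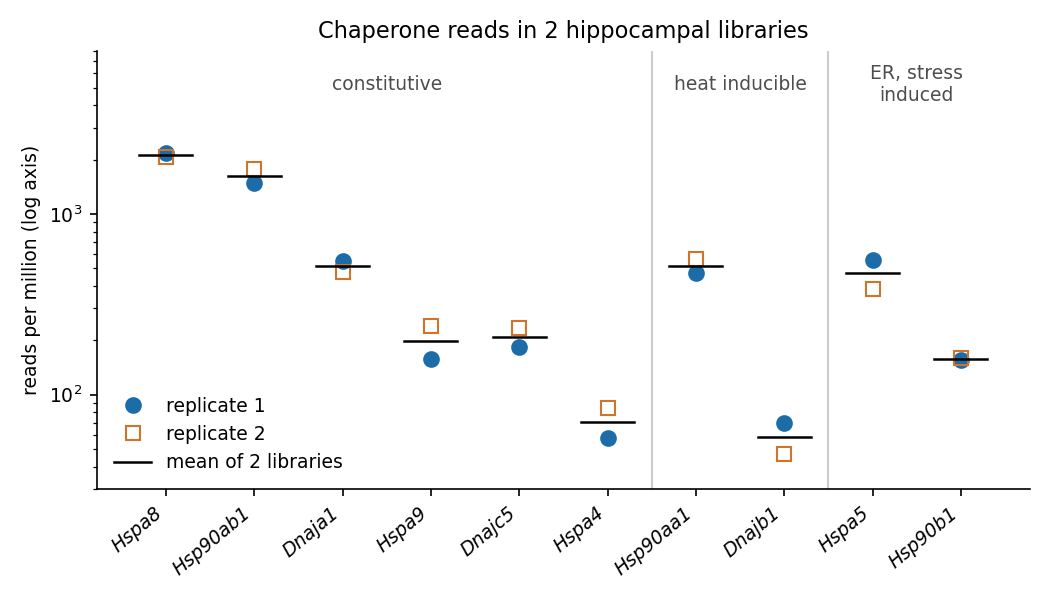
CPM (log axis) of the 10 genes in each library, ordered by textbook class, with a bar at the mean of the 2 libraries. Hspa8 and Hsp90ab1 lie above 1000 in both libraries and Hspa4 and Dnajb1 below 100 in both.

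Over all reads, the constitutive Hsp90 gene exceeded its inducible copy by a ratio that barely moved between the libraries. Hsp90ab1 gave 3.15 reads for each read of Hsp90aa1 in replicate 1 and 3.14 in replicate 2. The J proteins differed more, with 7.94 reads of Dnaja1 for each read of Dnajb1 in replicate 1 and 10.05 in replicate 2. Dnajb1 had only 81 and 42 reads, which limits the precision of the second ratio.

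Other heat-inducible chaperones were low or moderate. Of the 10 on the list, 8 had enough reads to test and 1, Hspe1, differed between the libraries (all genes: 11.5%). The highest were Hspd1 and Hsph1, the mitochondrial chaperonin and an Hsp110 exchange factor, at 260 ± 1.59 and 203 ± 13.8 CPM, followed by Hspe1, the co-chaperonin, at 101 ± 61.7 (SD, n = 2 each). Hspe1 fell from 145 to 57.4 CPM between replicate 1 and replicate 2 (log2 ratio -1.32, exact binomial test, adjusted p = 6.58e-08), and its annotated leading transcript is 774 nt long. With the trend on transcript length removed, it kept its call (log2 ratio -0.72, exact binomial test, adjusted p = 0.0372). The classic inducible Hsp70 genes Hspa1a and Hspa1b had 13 and 15 reads in replicate 1 and 13 and 18 in replicate 2. Their coding sequences are 99.4% identical, so the split of reads between them is uncertain.

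The library comparison asked which members differed beyond counting error. Hsp90ab1, Hspa9 and Hsp90aa1 were higher in replicate 2 and Hspa5 was higher in replicate 1, at an adjusted p of at most 0.05 by a two-sided exact binomial test over 11681 genes. Over all those genes, 6.25% were called higher in replicate 2 and 5.24% higher in replicate 1, or 11.5% in either direction. The median log2 ratio of replicate 2 over replicate 1 was 0.14 over the 10 members and 0.11 over all genes tested, on the scale of log2(CPM + 1).

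Hspa5 fell from 653 reads in replicate 1 to 340 in replicate 2, a log2 ratio of -0.55 (adjusted p = 5.7e-07). Its direction and its call held under every alternative tried, where the log2 ratio ran from -0.83 to -0.53. Hspa9 rose from 185 to 212 reads in the smaller second library, a log2 ratio of 0.59 (adjusted p = 0.00111). Hsp90ab1 went from 1737 to 1568 reads, a log2 ratio of 0.25 (adjusted p = 3.89e-05), and Hsp90aa1 from 551 to 499, also 0.25 (adjusted p = 0.0452).

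The calls upward depended on the scaling. Longer transcripts had higher ratios throughout the libraries: the median log2 ratio was -0.66 for 629 genes with leading transcripts of up to 1000 nt and 0.32 for 1224 genes above 4000 nt, among genes with at least 50 reads. With that trend removed, no member was called higher in replicate 2 (all genes: 1.88%) and Hspa5, Dnaja1 and Hspa8 were called higher in replicate 1 (all genes: 1.93%), while Hsp90aa1 turned to -0.03 (adjusted p = 0.998). With trimmed-mean (TMM) totals Hspa9 alone was higher in replicate 2 (all genes: 3.17%), and Hspa5, Dnaja1 and Hspa8 were higher in replicate 1 (all genes: 6.89%). The TMM totals moved the median of all genes by -0.12 on the log2 scale.

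Several other ER genes were called in the direction of Hspa5. Of 10 ER stress targets, 5 were called higher in replicate 1 (all genes: 5.24%) and 0 in the other direction. The median log2 ratio was -0.65 beside 0.11 over all genes. This list was chosen with earlier results of these data known. The 5 called were Xbp1, the transcription factor of the unfolded protein response, Pdia4 and Pdia6, disulfide isomerases, Calr, the lectin chaperone calreticulin, and Manf, a secreted ER stress protein. Pdia6 went from 315 to 146 reads (log2 ratio -0.71), Xbp1 from 221 to 104 reads (-0.69) and Canx, the membrane-bound relative of Calr, from 152 to 154 reads (0.41, adjusted p = 0.0904). Also not called were Ddit3 and Sdf2l1 (-0.77 and -0.68) and Atf4 and Herpud1 (0.22 and -0.05). ER J proteins outside the list lay above 0: Dnajc3, Dnajb9, Dnajb11 and Dnajc10 had log2 ratios of 0.16, 0.39, 0.21 and 0.45. None of them was called. The same count, 5 of 10, was called with the length trend removed (all genes: 1.93%).

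Hsp90b1 did not pass the test. It had 182 and 142 reads, a log2 ratio of 0.04 (adjusted p = 0.970), and values of 156 and 160 CPM that lie next to each other. Its log2 ratio turned to -0.09 with TMM totals and -0.21 with the length trend removed, with adjusted p of 0.884 and 0.669. Hyou1, the ER member of the Hsp110 group, also had close values, 59.1 and 59.6 CPM.

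Markers of other cells differed between the libraries too, choroid plexus in the direction of Hspa5. All 5 choroid plexus markers were called higher in replicate 1, led by Ttr with 5325 reads against 5, and their summed level was 4651 CPM against 6.75. Kcnj13, Clic6 and Folr1 were at 0 in replicate 2, and Kl had 1 read. Astrocyte markers went the other way, with 4 of 5 called higher in replicate 2 and sums of 2638 and 4274 CPM. Neuron markers had 3 of 5 called higher in replicate 2, with sums of 3704 and 4304. Over all genes, 6.25% were called higher in replicate 2 and 5.24% higher in replicate 1. Of the markers of hippocampal fields, all 6 had reads, and 2 were called higher in replicate 2, among them Prox1 of the dentate gyrus with 8 and 34 reads, and 1 higher in replicate 1. Oligodendrocyte markers had 3 of 4 tested called higher in replicate 2, microglia 2 of 5 and endothelium 0 of 4. With the length trend removed, all 5 choroid plexus markers were still called higher in replicate 1 (all genes: 1.93%). Higher in replicate 2 were then 4 astrocyte, 2 oligodendrocyte, 1 neuron, 1 microglia and 1 hippocampal field markers (all genes: 1.88%). The part of these cells in the Hspa5 or ER values was not tested, and in bulk tissue more cells of a type and more RNA per cell cannot be told apart.

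**Figure D2:**
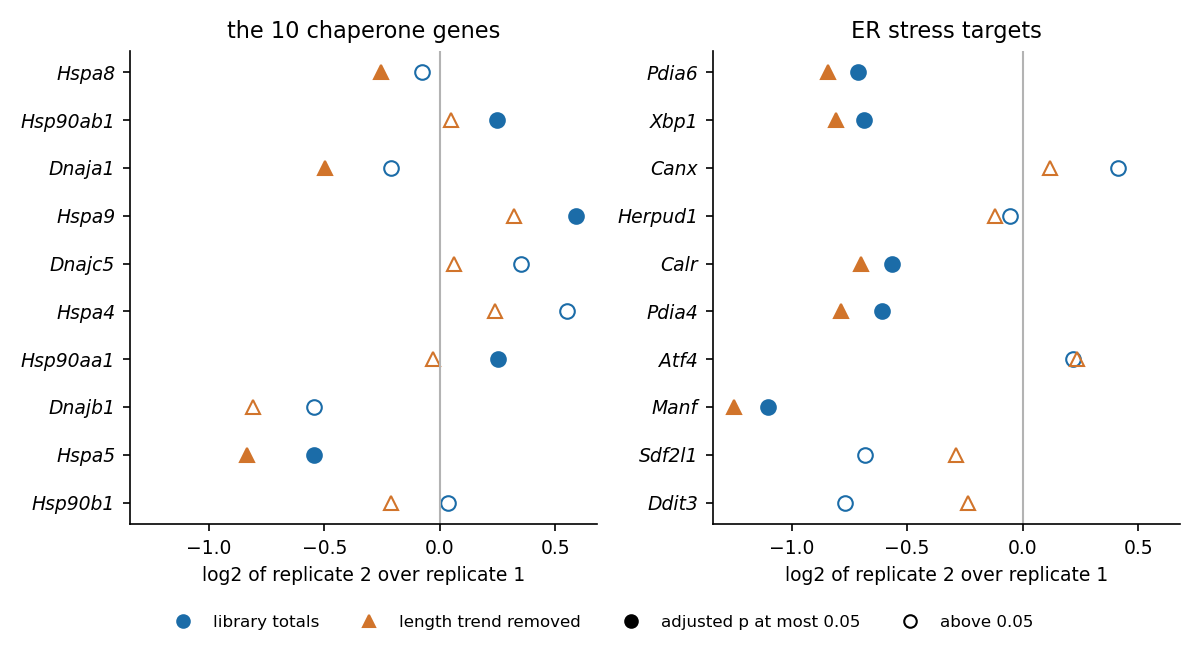
Log2 ratio of replicate 2 over replicate 1 for the 10 chaperone genes (left) and 10 ER stress targets (right), with library totals (circles) and with the trend on transcript length removed (triangles). Filled symbols have an adjusted p of at most 0.05. Hspa5, Pdia6, Xbp1, Calr, Pdia4 and Manf lie below 0 under both.

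The upstream DNA of the ER members is shown for the element through which unfolded protein is known to induce them. The ER stress response element was searched as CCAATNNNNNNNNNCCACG on both strands in the 250 bases before the start site, in RefSeq promoters on GRCm38.p6. It was found in 0.113% of 32851 promoters. Promoter sequences were at hand for 5 of the 10 members (Hsp90b1, Hspa4, Hspa5, Dnaja1 and Dnajb1), and both ER members matched, with the matches in capitals.
Hspa5 (chr2:34771995-34772073, plus strand): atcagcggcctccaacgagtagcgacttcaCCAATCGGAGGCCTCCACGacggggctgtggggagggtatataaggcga
Hsp90b1 (chr10:86705518-86705671, minus strand): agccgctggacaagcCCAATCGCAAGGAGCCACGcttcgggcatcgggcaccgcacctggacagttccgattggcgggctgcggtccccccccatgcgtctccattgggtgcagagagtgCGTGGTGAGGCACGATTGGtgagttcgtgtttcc
The Hspa5 match began 65 bases before the start site, and the Hsp90b1 matches began 212 and 107 bases before it, the nearer one on the opposite strand. These distances are from the RefSeq start: the Hspa5 match lies inside the GENCODE first exon of Hspa5-201 (chr2:34771970-34772146). Calr, Canx, Pdia6 and Dnajc3 held 1 match each among the other listed genes. A match describes letters in this window only: Hspa5, Calr and Pdia6 were called higher in replicate 1, while Hsp90b1, Canx and Dnajc3, an ER J protein, did not pass the test.

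The heat shock element, built of inverted GAA units, was searched as GAANNTTC or TTCNNGAA, which 12.8% of promoters held. Of the 5 members with a promoter sequence, Dnaja1 alone had a match, 124 bases before its RefSeq start site, in capitals. The match lies upstream of Dnaja1-201 and inside the GENCODE first exon of Dnaja1-207 (chr4:40722150-40722435), which had 0 reads under that name.
Dnaja1 (chr4:40722314-40722381, plus strand): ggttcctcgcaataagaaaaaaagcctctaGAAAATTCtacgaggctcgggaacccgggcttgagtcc
The longer form of 3 units, GAANNTTCNNGAA or TTCNNGAANNTTC, occurred in 0.466% of promoters, and among the listed genes in Hspd1, Hspe1 and Dnajb6.

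The partners of Hsp70 and Hsp90 are given by list, beside 11.5% of all genes called in either direction. None of 18 tested J proteins was called in either direction by the binomial test, led by Dnajb6, Dnaja2 and Dnajb11 at 271, 201 and 159 mean CPM. Dnajc5b, the relative of Dnajc5 known from testis, had 0 reads in both libraries, which allows up to 2.57 and 3.38 CPM. Of 15 tested Hsp90 co-chaperones, 1 was called higher in replicate 2, Unc45a, and 2 higher in replicate 1, Stub1 and Chordc1. Unc45a kept its call with TMM totals (adjusted p = 0.0270) and lost it with the length trend removed (adjusted p = 0.150), while Stub1 and Chordc1 kept theirs under both. The highest were Fkbp8, an immunophilin of the outer mitochondrial membrane, at 695 ± 42.2 CPM, Stub1, the ubiquitin ligase CHIP, at 344 ± 56.3, and Cdc37, which brings kinases to Hsp90, at 210 ± 10.7 (SD, n = 2 each).

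Sgta, which forms a complex with Hspa8 and Dnajc5, led the 10 nucleotide exchange factors and Hsp70 regulators at 336 and 442 CPM. It was the 1 gene of that list called (higher in replicate 2, log2 ratio 0.40, adjusted p = 0.00224), and its adjusted p was 0.0756 with TMM totals and 0.0443 with the length trend removed. Bag1 and St13 followed at 232 and 130 mean CPM. Hspa2, an Hsp70 known for its role in testis, led the other Hsp70 genes with 293 and 347 CPM, ahead of Hspa4l, of the Hsp110 group, at 59.1 and 69.8, and none of the 6 tested in that list was called. Trap1, the mitochondrial Hsp90, had 64.2 and 52.9 CPM, and the heat shock factors Hsf1 and Hsf2 had means of 43.6 and 22.5.

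Reads were next split by how each matched the annotation. The authors' class "known" holds annotated transcripts, an incomplete splice match follows part of an annotated chain of introns, and new chains either combine known splice sites or use a new site. Genomic models, mostly of 1 exon, match no annotated chain. Over the 10 members, 85.4% of reads in replicate 1 and 87.3% in replicate 2 were on annotated transcripts, beside 71.8% and 71.5% over all annotated genes.

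The members spread widely around those values. Hspa5 had 95.7% and 97.1% of its reads on annotated transcripts, Hspa8 93.7% and 94.5%, and Dnajb1 90.1% and 90.5%. At the other end were Hsp90aa1 with 60.1% and 69.3%, Hspa4 with 55.2% and 74.7%, and Dnajc5 with 68.8% and 67.9%. The median of this share was 74.1% in replicate 1 and 75.0% in replicate 2, over the 6607 genes that reached 20 reads in both.

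What filled the remainder differed by gene. In Hsp90aa1 it was incomplete splice matches, 31.9% and 23.4% of reads, and in Hsp90b1 as well, 22.5% and 17.6%. In Dnajc5 and Hspa4 it was genomic reads, 24.7% and 21.1% in Dnajc5 and 34.3% and 14.7% in Hspa4. In Dnaja1 it was new combinations of known splice sites, 11.8% and 12.6% of reads, beside 5.60% and 6.91% over all annotated genes.

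No member's annotated share differed between the libraries by a two-sided Fisher exact test with Benjamini-Hochberg adjustment, where 0.696% of all genes were called. The lowest adjusted p was 0.100, for Hsp90ab1, with 1458 of 1737 reads annotated in replicate 1 and 1379 of 1568 in replicate 2. With genomic reads left out of the total, Hsp90ab1 was called, with a share 4.52 points higher in replicate 2 (adjusted p = 0.0123). That setting removed 0 reads of replicate 1 and 9 of replicate 2, which lay on a 1 nt model at the end of the last exon (chr17:45567775). In replicate 1, 23 reads on a 1-exon model ending there were classed as incomplete splice matches and stayed in. The class labels were thus unequal between the libraries. Over all reads the gap was already 4.01 points, and incomplete splice matches held 238 and 141 Hsp90ab1 reads. What the call rests on was not tested. Hspa4 showed the widest gap, 19.4 points, on 67 and 75 reads (adjusted p = 0.529).

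**Figure D3:**
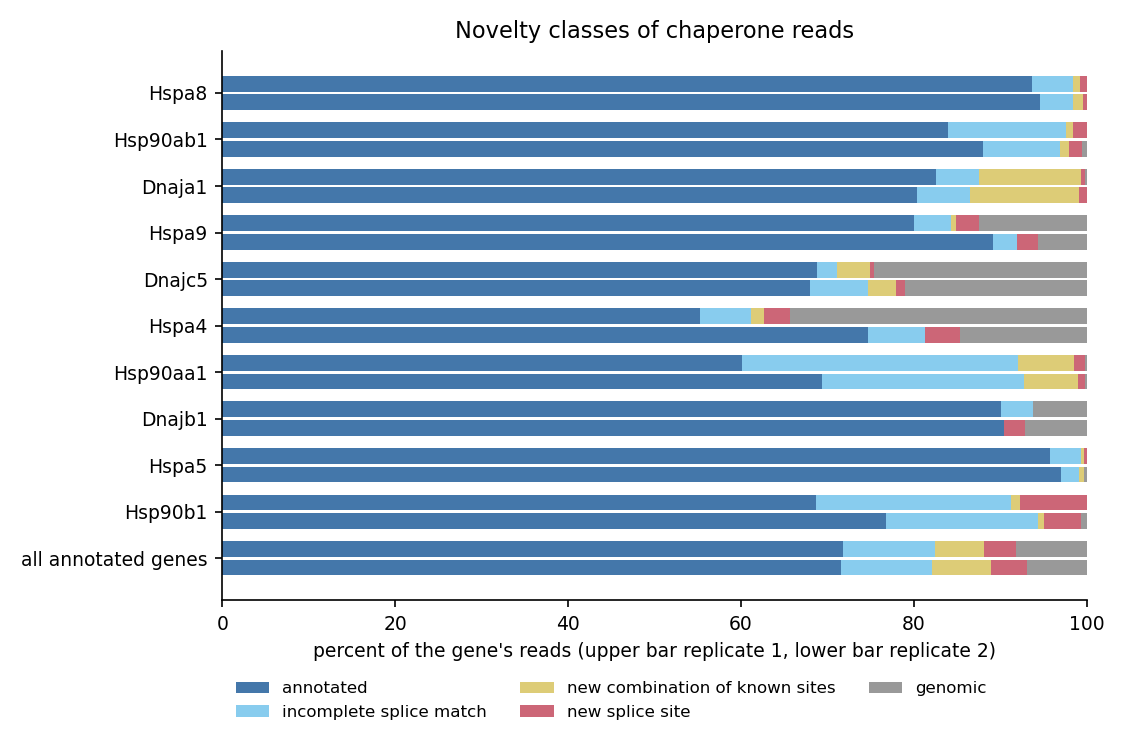
Share of each gene's reads in 5 novelty classes, with replicate 1 in the upper and replicate 2 in the lower bar, and all annotated genes last. Hspa8 and Hspa5 are above 93% annotated in both libraries, Hsp90aa1 carries the widest band of incomplete splice matches, and Dnajc5 and Hspa4 the widest genomic bands.

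Of the 63 transcripts annotated for the 10 genes, 18 had a read. The leading transcript held most of the reads of each gene in both libraries, with 1 exception in 1 library. Hspa8-201 had 2384 of 2545 reads in replicate 1 and 1734 of 1834 in replicate 2, and Hspa9-201 had 148 of 185 and 189 of 212. Dnajb1-201 had 71 of 81 and 38 of 42, and Hsp90b1-201, a chain of 18 exons, had 125 of 182 and 109 of 142. The exception was Hspa5-201, with 52.8% of reads in replicate 1 and 48.8% in replicate 2.

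Fisher's exact test called no member for a different leading transcript share, where 1.06% of all genes were called. At a minimum of 50 reads in each library Hsp90ab1 was called, with a share 4.01 points higher in replicate 2 (adjusted p = 0.0461). The chain of 19 exons of Hspa4-201, 4618 nt long, was read complete 37 and 56 times.

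Hspa5 was the gene with a pair of near-equal annotated transcripts. Hspa5-201, of 9 exons, had 345 and 166 reads, and Hspa5-202, of 8 exons, had 278 and 163. Their intron chains differ by an intron of 82 nt in the 5′ untranslated region (chr2:34772147-34772228, mm10), upstream of the start codon. Their annotated ends differ too (chr2:34771970-34777547 and chr2:34772095-34776531). The exact 95% intervals of the Hspa5-202 share, 38.7 to 46.5% and 42.5 to 53.4%, overlap. The ends of the intron, with their splice dinucleotides in capitals, were as follows.
Hspa5, 5′ end of the intron (chr2:34772137-34772166, plus strand): tgtgtgtgagGTaagcgccgcggcctgctg
Hspa5, 3′ end of the intron (chr2:34772209-34772238, plus strand): gaggcccctgtcgccctcAGaccagaaccg

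Models that held this intron inside an exon had 280 reads against 349 that spliced it in replicate 1, or 44.5% (95% exact interval 40.6 to 48.5%), and 164 against 167 in replicate 2, or 49.5% (44.0 to 55.1%). The test of the difference gave an adjusted p of 1.0. Starts of single reads were not analysed here. A read that begins inside the second exon has the same chain of introns as Hspa5-202, so retention and a late read start cannot be told apart here. Reads that lacked only the first intron were 0.832% and 0.516% of those with or without it in Hspa8, 0.951% and 1.43% in Hsp90ab1, and 1.14% and 1.02% in Dnaja1, against 21.1% and 16.5% in Hsp90aa1 and 44.6% and 49.5% in Hspa5.

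The drop at the first Hspa5 junction was a step. Of the reads that spliced the last Hspa5 intron, 97.7% and 97.6% as many spliced the second intron, 3277 nt from the 3′ end of the mRNA, and 54.3% and 49.3% as many spliced the first, 3495 nt from it. Hsp90aa1 and Dnaja1 also stepped down at the first junction, to 69.5% and 75.1% and to 68.5% and 72.6%. These values count only the first exon of the leading transcript. From any first exon, 610 and 401 Dnaja1 reads were spliced to the second exon, beside 638 and 412 reads on the last junction. The step in Dnaja1 is thus mostly use of other first exons. In Hsp90aa1 the numbers were 393 and 389, beside 501 and 473. In Hspa8 the first junction still had 95.9% and 96.2% of the last junction's reads, in Hspa9 95.7% and 96.5%, and in Hsp90b1 77.0% and 82.9%.

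**Figure D4:**
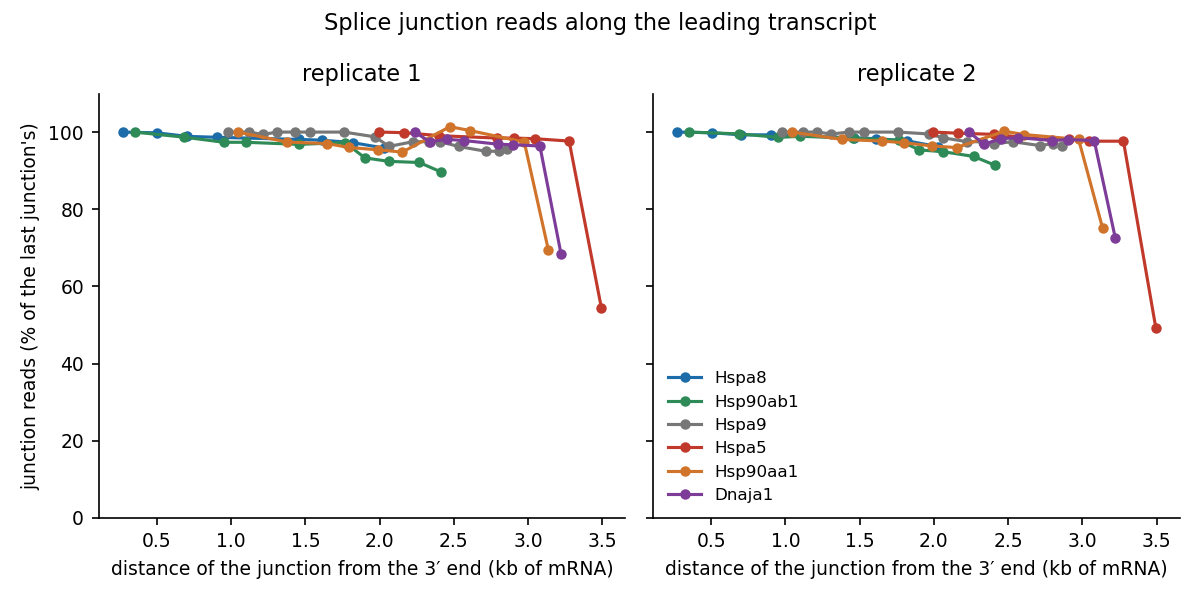
Reads on each splice junction of the leading transcript, as a percentage of reads on the last junction, against the junction's distance from the 3′ end of the mRNA in kb, for 6 genes in each library. Hspa5, Hsp90aa1 and Dnaja1 drop at the first junction alone, to 49.3 to 75.1%. Reads from other first exons, frequent in Dnaja1, are not counted on it.

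In Dnaja1, reads joined 3 main first exons to the same second exon, which begins at chr4:40723703 and holds the start codon. The sequence across each junction is shown with the shared second exon in capitals, and the last base of the first exon in parentheses (plus strand, mm10).
Dnaja1-201 (chr4:40722633): ccggcccgctcaccgGCTGTAAAAAATGGT
Dnaja1-210 (chr4:40723136): gcggggcgagagtggGCTGTAAAAAATGGT
Dnaja1-205 (chr4:40723001): cctctctttgttgagGCTGTAAAAAATGGT
The first exon of Dnaja1-201 was used by 437 of 610 reads in replicate 1 and 299 of 401 in replicate 2, or 71.6% and 74.6%. The exon of Dnaja1-210 had 98 and 49 reads, or 16.1% and 12.2%, and that of Dnaja1-205 had 70 and 46 reads, or 11.5% in both. Their exact 95% intervals overlap between the libraries.

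Dnaja1-205 is annotated only as far as exon 7, so its first exon joined to the complete chain of 9 exons counted as new. That chain was read 70 times in replicate 1 and 45 times in replicate 2, which is 10.9% and 10.7% of the gene, the most of any new chain of the 10 genes. Dnaja1-210 itself had 96 and 49 reads. The coding region of both full-length forms is that of Dnaja1-201, since translation starts in the second exon.

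In Hsp90aa1, reads also joined 3 main first exons to the exon with its start codon, which begins at chr12:110695680 on the minus strand. The coding exon is in capitals, and the last base of the first exon is in parentheses.
Hsp90aa1-202 (chr12:110696252): gttcattcagccacgATGCCTGAGGAAACC
Hsp90aa1-207 (chr12:110695766): tccaaaatagagtcgATGCCTGAGGAAACC
Hsp90aa1-203 (chr12:110696143): cctcagcccgcggagATGCCTGAGGAAACC
The first of these was used by 348 of 393 reads in replicate 1 and 355 of 389 in replicate 2, or 88.5% and 91.3%. The exon of Hsp90aa1-207 had 30 and 26 reads, 7.63% and 6.68%, and that of Hsp90aa1-203 had 15 and 7. Joined to the complete chain, the Hsp90aa1-207 exon made an unannotated chain with 24 and 25 reads.

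The largest unannotated form of Hsp90aa1 was an incomplete match of 10 exons, read 87 times in replicate 1 and 68 times in replicate 2, which is 15.8% and 13.6% of the gene. It holds every intron of Hsp90aa1-202 but the first. In replicate 1 its deposited model begins at chr12:110695672, inside the second exon, and in replicate 2 the same chain begins at chr12:110695951, upstream of the 85 nt intron between the Hsp90aa1-207 exon and the second exon. Those positions are the annotated 5′ ends of Hsp90aa1-206 and Hsp90aa1-207.

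The end of that model decides whether its reads count as holding the 85 nt intron (chr12:110695681-110695765, mm10). The intron was counted as held by 1 of 31 reads in replicate 1 and 68 of 94 in replicate 2, and those 68 are the reads of the chain of 10 exons. It was the 1 member intron called, but the call follows from the model ends and is no measure of retention.

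Few reads held the other introns of these genes. Of 107 introns tested, the median share of reads holding the intron was 0 in both libraries, as it was over all 50398 annotated introns tested, of which 0.3% were called. Retention above 10% in both libraries was seen for 4 member introns, beside 3.10% of all introns. The 21 transcripts annotated with the retained intron biotype had 7 reads in replicate 1 and 4 in replicate 2, 5 and 3 of them on Hsp90aa1-206 and 2 and 1 on Hspa5-203.

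The 4 were the Hspa5 intron above and 3 introns that only minor annotated transcripts splice. A 37 nt intron within an Hsp90ab1 coding exon (chr17:45571482-45571518), spliced in the nonsense-mediated decay transcript Hsp90ab1-206, was held by all 1554 and all 1460 reads across it. A 146 nt intron in the 3′ untranslated region of Dnajc5 (chr2:181550021-181550166) was held by 200 of 209 and 199 of 205 reads, 95.7% and 97.1%. A 297 nt intron after the alternative first exon of Hspa8 (chr9:40801621-40801917) was held by 20 of 37 and 9 of 26 reads, the same numbers of reads that lacked only the first intron of Hspa8-201. A read that begins inside the second exon has that chain too. As in Hspa5, retention and a late read start cannot be told apart here.

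Elsewhere the highest retention in either library was low. It was 2.79% and 1.28% for the 100 nt intron of Hsp90aa1 (chr12:110695419-110695518), and 0% and 1.48% for the 276 nt intron of Dnaja1 (chr4:40731800-40732075), which 6 reads of replicate 2 held. The last Dnajb1 intron (chr8:83610395-83610588) was held by 0 of 76 and 3 of 42 reads. Those 3 lay on 1 unspliced genomic model (chr8:83610394-83613619), and no spliced model held the intron. A 782 nt intron of Hspa4 (chr11:53265142-53265923) was held by 1 of 42 and 0 of 62. In Hsp90b1 the highest share was 1.29%, for a 400 nt intron, and in Hspa9 0.649%, both in replicate 1. The Hspa8 introns that carry the small nucleolar RNAs Snord14c, Snord14d and Snord14e, its introns 5, 6 and 8, were held by 1, 2 and 6 reads in replicate 1 and by 0, 1 and 2 in replicate 2.

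**Figure D5:**
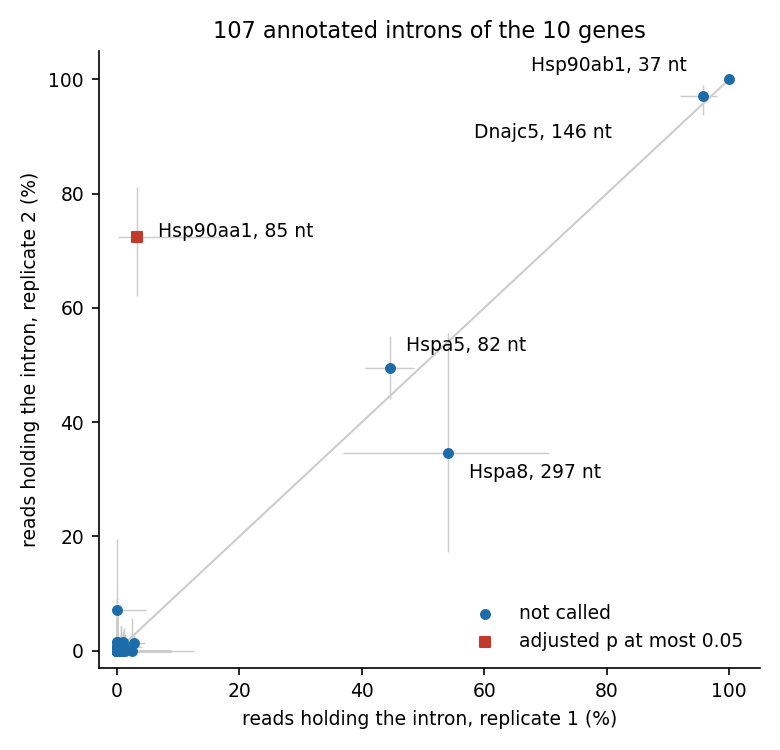
Share of reads that hold each of 107 annotated introns inside an exon, replicate 1 against replicate 2, in percent, with exact 95% intervals. Introns cluster at 0, and 5 named ones stand away from it, of which the 85 nt intron of Hsp90aa1 (3.23% against 72.3%) is set by the ends of the deposited models.

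Dnajc5 showed an alternative exon that cuts the reading frame. An exon of 75 nt (chr2:181548926-181549000, mm10), annotated in the nonsense-mediated decay transcript Dnajc5-204, was included by 10 of 161 reads in replicate 1 and 10 of 164 in replicate 2, or 6.21% and 6.10% (exact 95% intervals 3.02 to 11.1% and 2.96 to 10.9%). The sequence after exon 4, which ends at chr2:181548841, is shown for both forms: the stop codon met in the 75 nt exon is in capitals in the first line, and the last exon is in capitals in the second.
Dnajc5-204: agtctgatgaaaggggagggcacTGAcact
Dnajc5-201: agtctgatgaaagggAGGCTACAGACACAC
Dnajc5-201 had 133 and 127 reads, Dnajc5-204 had 5 and 9, and Dnajc5-203, which adds a 5′ untranslated exon, had 10 and 5.

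Models of 1 exon held 24.2% and 21.1% of Dnajc5 reads, beside 14.2% and 11.8% over all annotated genes, which include genes of 1 exon. Most lay in 1 genomic model inside the last exon (chr2:181549326-181552880), with 46 reads in replicate 1 and 40 in replicate 2, whose end is 2253 nt short of the annotated end. Hspa4 had 17 and 3 such reads at the 3′ end of its last exon (from chr11:53259814). Another 6 and 8 lay on models that hold its first exon and run on into the first intron. These span chr11:53299348-53300457 and chr11:53299347-53300457, and the first exon ends at chr11:53300060. Hspa9 had 16 and 9 at the end of its last exon. In Hsp90b1 an incomplete match of the last 2 exons had 18 and 14 reads, 9.89% and 9.86% of the gene.

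Unannotated spliced chains were many and thin. The 10 genes had 80 such chains in replicate 1 and 76 in replicate 2, with 242 and 191 reads, and 20 chains were in both, carrying 169 and 130 of those reads. Dnaja1 alone accounted for 76 and 53 of the reads on shared chains, and Hsp90aa1 for 37 and 32. After them came Hspa8, where the alternative first exon ending at chr9:40801620 was joined to the complete chain in 17 and 16 reads. In Hsp90ab1 the leading shared chain had 9 and 11 reads, in Hsp90b1 6 and 3, and in Dnajc5 2 and 4, while Hspa4, Hspa5, Hspa9 and Dnajb1 shared none.

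The Hspa8 forms are shown with the second exon, which holds the start codon, in capitals and the last base of the first exon in parentheses (plus strand, mm10).
Hspa8-201 (chr9:40801348): gggcctacacacaagCAACCATGTCTAAGG
Hspa8-205 (chr9:40801620): gcagggccccccgagCAACCATGTCTAAGG
The first exon of Hspa8-201 was used by 2414 of 2431 reads in replicate 1 and 1744 of 1763 in replicate 2, and that of Hspa8-205 by 17 in each library, 0.699% and 0.964%. In Hsp90ab1 98.4% and 98.7% of reads used 1 first exon.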

How the data were processed

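Long-read cDNA of 2 hippocampal libraries was deposited as raw read counts per transcript model. Per the file headers, the authors built models with TALON on GENCODE M21 (mm10). Aligner, filters and versions: not given in the sources used here. The deposited columns of exon number and length, and the exon positions, are other values that were used as given. Counts were summed per gene and divided by the library totals (CPM), 1168366 and 888704, spike-ins included (1.72% and 1.15%).

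For read splits between the libraries the test was the exact binomial, two-sided (genes with at least 10 reads), and for shares and introns Fisher's exact test (at least 20 reads in each library), with Benjamini-Hochberg adjustment over all genes or introns, in Python 3.11.15 with scipy 1.17.1. Intervals are exact (Clopper-Pearson, 95%) and, like the limit for 0 reads (3 reads), cover counting error only. An intron was held when 1 exon of a model contained it. Alternatives used edgeR 4.0.16 TMM totals, DESeq2 1.42.0 size factors, totals without spike-ins, a lowess length trend, other read minimums, and annotated or spliced models only. Named genes were all members, and of each chaperone or ER list the 3 highest and those at 0 (Tomm70 is counted as Tomm70a); other genes, cell type markers among them, were chosen after their values were seen, as called genes or for comparison. Of each member, transcripts with at least 5% of reads, the leading new chain and the most retained intron are named. The members and lists were chosen with earlier results of these data known. The tests were checked on simulated data.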

Additional observations from a re-analysis of the deposited data

Results flagged for a closer look

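Reads of the authors' antisense class, which enter no comparison above, exceeded the limit of 3 reads that a count of 0 allows over 4 member genes. Over Hsp90b1 there were 25 such reads in replicate 1 and 2 in replicate 2, of which 24 and 2 fell on a single-exon model within the gene (chr10:86700329-86702028, mm10). Over Dnaja1 there were 23 in replicate 1 and 11 in replicate 2, 20 and 10 of them on single-exon models. Those models share the lower position chr4:40726830, their 3′ end on the minus strand, and reach up to chr4:40728183 and chr4:40727244. Hspa4 had 9 in each library, spread over models of at most 4 reads. Dnajc5 had 5 in replicate 2, with 3 in replicate 1. On their own strands Hsp90b1 had 182 and 142 reads and Dnaja1 643 and 422. Apart from these, reads of annotated genes on the opposite strand numbered 96 and 105 over Dnaja1 and 2 and 4 over Dnajb1, with 1 in replicate 2 over Hsp90b1 and over Hspa5. No read of another gene name lay on the same strand over any of the 10 genes.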

How the results depend on the processing

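No paired analysis was possible because the study has 1 group of 2 libraries. The count of members higher in replicate 2, 3 with library totals, became 1 with TMM totals, 1 with DESeq2 size factors and 0 with the length trend removed. The count higher in replicate 1, 1 with library totals, became 3 under each of those settings. Without spike-in reads or without a read minimum Hsp90aa1 lost its call (adjusted p = 0.0568 and 0.0734). The log2 ratio of Hsp90aa1 changed sign, to -0.029, with the length trend removed. Hsp90ab1 kept its sign and lost its call with TMM totals (adjusted p = 0.123). With reads of annotated transcripts only, Hspa4 was also called (log2 ratio 0.97, adjusted p = 0.0139). The count of members with a different annotated share rose from 0 to 1 with genomic reads left out, where Hsp90ab1 lost reads in replicate 2 only. That of leading transcript shares rose from 0 to 1 at 50 reads in each library. That of introns, the Hsp90aa1 intron set by model ends, fell from 1 to 0 at 50 reads. Constitutive members summed to 6388 CPM of annotated reads and 5380 with TMM totals, against 4738. ER members summed to 871 on annotated reads, against 629, and heat-inducible members to 652 with TMM totals, against 575. These sums were divided by smaller totals than 1168366 and 888704, so they are on another scale and show no higher level. The totals were 755322 and 586579 for annotated reads, and 984536 and 817677 for TMM. On annotated reads Hsp90ab1 had 4.195 reads for each read of Hsp90aa1, as the mean of 2 libraries that differed more than over all reads. The annotated reads were 1458 and 331 in replicate 1 and 1379 and 346 in replicate 2. With either replicate left out, the constitutive sum was 4615 or 4861, the heat-inducible 541 or 609 and the ER 542 or 715 CPM, the ratio of Hsp90ab1 to Hsp90aa1 3.14 or 3.15 and that of Dnaja1 to Dnajb1 7.94 or 10.05. The cause of the changes other than those of scale was not tested. Members with under 100 reads, Hspa4 and Dnajb1, are limited by depth.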
